A study of Homo sapiens with 6 samples.

Results

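The genes described here are the members of 7 solute carrier families that carry amino acids or closely related molecules across membranes: SLC1, SLC3, SLC6, SLC7, SLC36, SLC38 and SLC43. They were picked out by a rule on gene symbols, and the families were chosen with earlier results of these data known. The rule gave 33 of the 18398 genes in the deposited count table, with 5 in SLC1, 1 in SLC3, 6 in SLC6, 8 in SLC7, 2 in SLC36, 8 in SLC38 and 3 in SLC43. The symbol rule also took SLC7A6OS, a gene on the strand opposite SLC7A6 that does not code for a transporter, and 32 genes remain without it. Total RNA, depleted of ribosomal RNA, was sequenced from SUM159, a cell line from a human triple-negative breast tumour that looks mesenchymal, grown in serum-containing medium with insulin and hydrocortisone. The POGK group (3 libraries) came from stable cells that overexpress POGK from the lentiviral vector pLVX, and the control group (3 libraries) came from SUM159 cells with the empty pLVX vector. POGK is a KRAB-domain protein derived from a pogo-like transposon. The labels do not say whether the stable cells are a clone or a pool, or whether replicates are separate cultures, so each p-value reflects the spread among these libraries alone, and that spread may be technical.

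Amino acid transporters at the cell surface exchange, concentrate or equilibrate amino acids, and carriers on the lysosome release the products of protein breakdown into the cytosol. The SLC7 light chains work only when bound to a heavy chain, for most of them SLC3A2, also called CD98hc. Cells that run short of amino acids induce several of these genes through the kinase GCN2 and the transcription factor ATF4, and mTORC1 at the lysosome reads the supply through dedicated sensors. SLC7A5, SLC1A5 and SLC7A11 are well known in breast cancer cells for the uptake of leucine, glutamine and cystine.

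POGK itself had 26565, 28258 and 23128 counts in POGK libraries, against 1555, 2423 and 1987 in control libraries. Libraries held 27645789 to 33689230 counts in total. VIM, CD44, ZEB1, AXL and FN1, marks of a mesenchymal line, were at 48.45 CPM or more in every library (CPM is the count relative to library size, with library sizes scaled by TMM), whereas ESR1, EPCAM and ESRP1 stayed at or below 1.078 CPM. Of the markers of other cells, PECAM1 lay at 3.87 to 4.05 CPM in POGK libraries and 4.51 to 6.10 CPM in control libraries, PTPRC at 1.40 to 1.99 and 0.28 to 0.70 CPM, and DES at 0.33 CPM or less. The POGK libraries differed from each other far less than the control libraries did: a chi-square statistic between pairs of libraries averaged 1.36 to 2.62 per gene among POGK libraries and 22.5 to 49.7 among control libraries. Each gene had 1 dispersion in the test, shared by POGK and control libraries.

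Control replicate 2 stood apart for many of these genes, so the members the results turn on are given library by library. Among the 26 members with a mean of at least 1 CPM, control replicate 2 was the highest control library for 18, or 69.2%, against 37.1% of the 13403 genes tested at that level. For 8 of the 26 members, or 30.8%, control replicate 2 lay above all 3 POGK libraries while the other control libraries lay below all of them. That arrangement was found for 206 of the 13403 genes, or 1.54%. The 8 members were SLC1A4, SLC1A5, SLC6A9, SLC7A1, SLC7A2, SLC7A5, SLC7A11 and SLC38A1. The families were chosen with earlier results of these data known, so the excess over all genes is no independent support for a trait of these families. What sets this library apart was not tested.

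**Figure D1:**
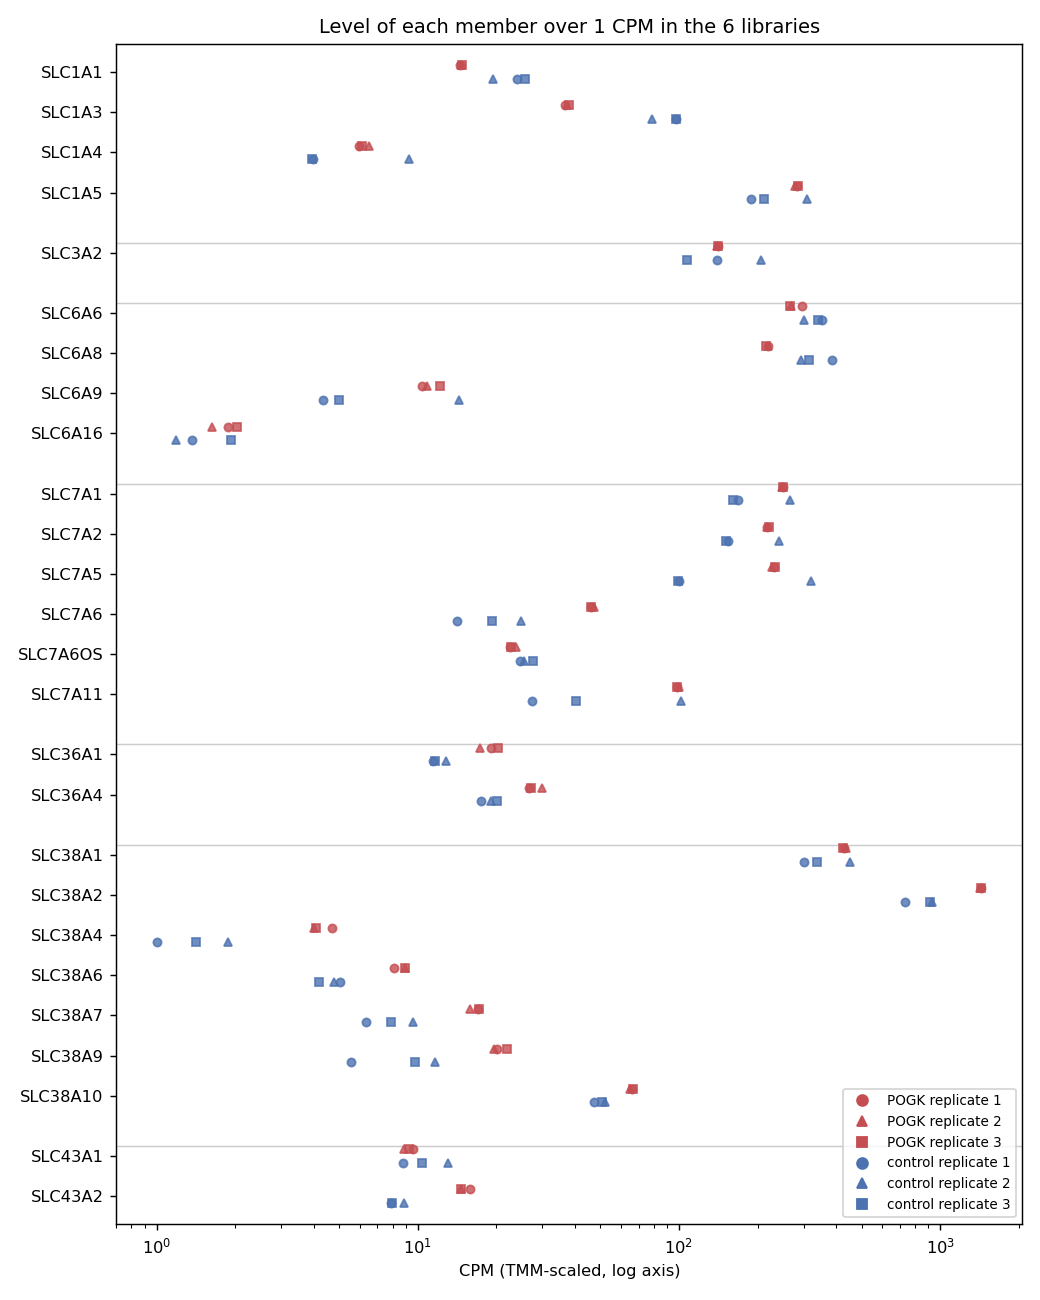
Level of the 26 members with a mean of at least 1 CPM, in CPM on a log axis, with a red row for the 3 POGK libraries above a blue row for the 3 control libraries and grey lines between families. The POGK points of a gene nearly coincide, while the triangle of control replicate 2 lies to the right of the other control points for 18 of the 26 genes.

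The promoters of 4 members with their highest level in control replicate 2, picked with these values in view, are shown because they hold sequences that known regulators of these genes recognise. Each runs from 250 bases before the RefSeq start site to 20 bases from it on, on the gene's own strand (RefSeq, GRCh38.p14), at chr16:87869488-87869757 for SLC7A5 (minus strand), chr13:29595669-29595938 for SLC7A1 (minus strand), chr12:46266497-46266766 for SLC38A1 (minus strand) and chr11:62881449-62881718 for SLC3A2 (plus strand). Capitals mark matches on either strand to the core of the C/EBP-ATF response element (TGATGNAA), the E-box (CACGTG) or the core of the antioxidant response element (TGACNNNGC), with N for any base.
SLC7A5: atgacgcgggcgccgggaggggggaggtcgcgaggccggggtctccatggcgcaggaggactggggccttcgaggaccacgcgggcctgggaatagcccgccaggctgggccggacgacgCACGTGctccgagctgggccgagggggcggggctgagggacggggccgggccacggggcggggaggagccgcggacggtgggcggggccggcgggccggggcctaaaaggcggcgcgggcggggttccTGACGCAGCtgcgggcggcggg
SLC7A1: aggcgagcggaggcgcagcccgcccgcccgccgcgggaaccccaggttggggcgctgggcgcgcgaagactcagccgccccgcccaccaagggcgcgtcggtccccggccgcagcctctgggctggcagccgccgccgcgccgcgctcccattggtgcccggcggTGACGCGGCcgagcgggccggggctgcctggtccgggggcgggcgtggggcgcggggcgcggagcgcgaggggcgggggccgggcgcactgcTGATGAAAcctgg
SLC38A1: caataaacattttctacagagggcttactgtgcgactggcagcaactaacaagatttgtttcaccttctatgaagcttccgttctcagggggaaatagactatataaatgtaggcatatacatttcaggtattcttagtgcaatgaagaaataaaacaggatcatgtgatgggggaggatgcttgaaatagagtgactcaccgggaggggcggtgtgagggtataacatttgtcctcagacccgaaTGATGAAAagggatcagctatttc
SLC3A2: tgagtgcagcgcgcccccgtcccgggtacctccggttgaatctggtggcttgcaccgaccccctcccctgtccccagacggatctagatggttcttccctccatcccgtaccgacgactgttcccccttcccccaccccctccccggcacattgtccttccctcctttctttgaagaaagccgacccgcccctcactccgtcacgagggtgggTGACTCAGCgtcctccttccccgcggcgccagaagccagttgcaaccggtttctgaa
The SLC7A5 promoter held an E-box from base -130 and an antioxidant core from base -2, counted from the start site. SLC7A1 held an antioxidant core from -85 and a C/EBP-ATF core from base 8. SLC38A1 held a C/EBP-ATF core from -4. SLC3A2 held an antioxidant core from -37 and, beyond the stretch shown, a C/EBP-ATF core from base 38. No matches overlapped in these promoters. RefSeq promoters of 300 bases, 250 before the start and 50 after it, were matched for 28 of the 33 members. The C/EBP-ATF core was in 4 of the 28, or 14.3%, against 3.62% of 35116 promoters. The E-box was in 6, or 21.4%, against 7.26%, and the antioxidant core was in 5, or 17.9%, against 13.3%. The fourth member with a C/EBP-ATF core was SLC1A3, whose level in control replicate 2 was the lowest of the control libraries. Of the 8 members with control replicate 2 above and the other control libraries below the POGK libraries, SLC1A4, SLC1A5 and SLC6A9 held no match. No promoter was matched for SLC7A2 and SLC7A11, and SLC3A2 is not among the 8. These are matches of letters and say nothing of binding.

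Of the 33 members, 30 passed the filter on low counts and were tested with edgeR's quasi-likelihood test, with Benjamini-Hochberg adjustment over all 15889 genes tested. At an adjusted p below 0.05, 10 members rose in POGK cells, 6 fell and 14 did not pass. Over all genes tested, 32.7% rose and 33.3% fell, so that 66.0% were called in either direction, and the share of members called, 53.3%, was not above that background. The groups of libraries did not overlap for 18 of the 30 members, against 73.7% of all genes tested. The median log2 fold change (POGK over control) of the tested members was 0.28, and that of all genes tested was 0.0025. The number that rose was 18 without control replicate 2, with 34.9% of all genes rising in that fit. It was 16 with limma and 1 variance weight per group, where 30.4% of all genes rose, and it was 11, with 7 lower, when the replicate number was a block, where 32.3% of all genes rose and 32.1% fell. Without control replicate 1 the number that fell was 10, with 31.9% of all genes falling. SLC6A3, SLC7A7 and SLC43A3 passed the filter through their control libraries, where they were higher, so the falls of SLC6A3 and SLC7A7 are no support for a direction. Among the other 27 tested members, 10 rose and 4 fell. The 3 members that did not pass it were SLC1A7, SLC6A13 and SLC7A8, with 14, 14 and 19 counts summed over POGK libraries and 32, 15 and 33 over control libraries.

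**Figure D2:**
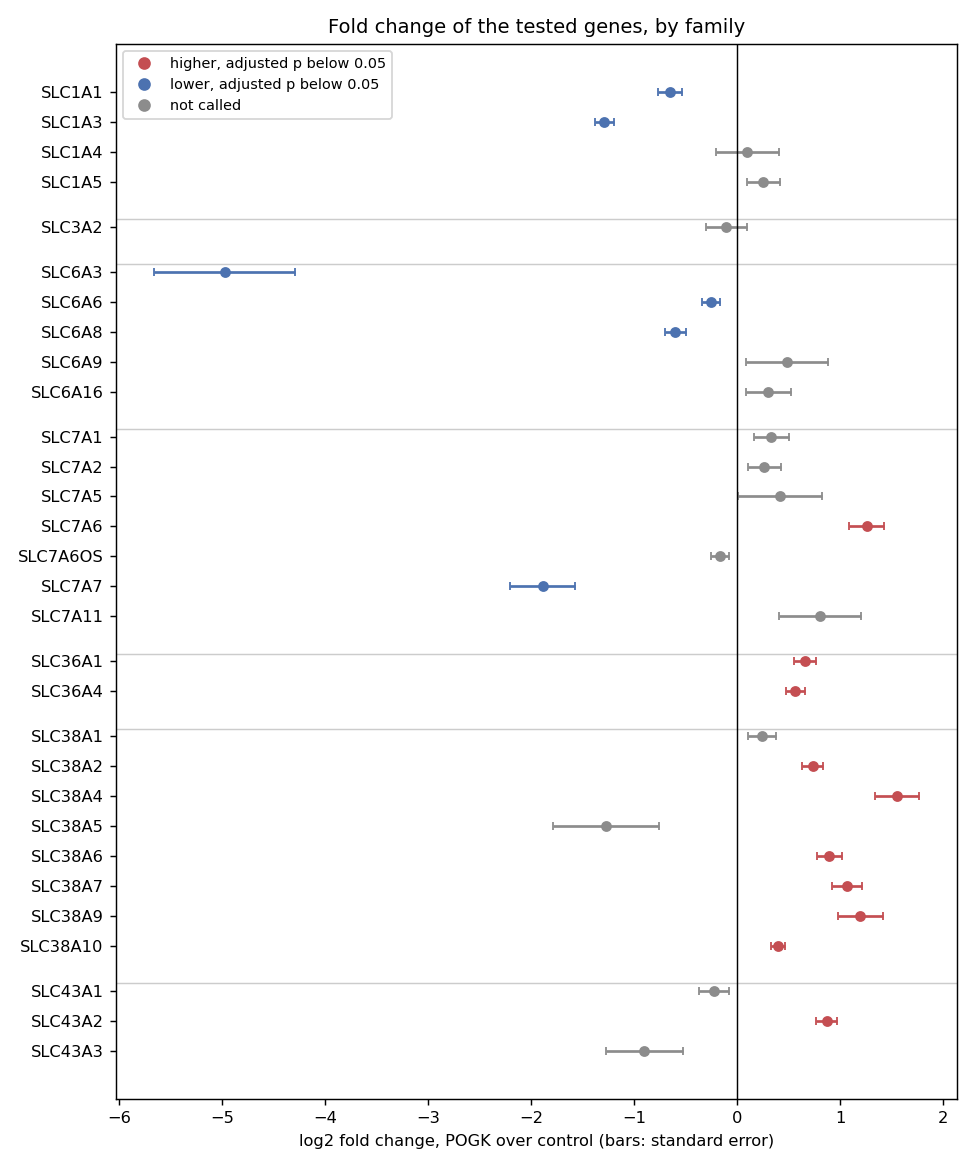
Log2 fold change of POGK over control for the 30 tested members, grouped by family, with standard errors as bars. Red points rose, blue points fell and grey points did not pass an adjusted p of 0.05. The SLC38 family holds 6 of the 10 red points.

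Counts of calls were uneven over the families, beside 32.7% of all genes tested that rose and 33.3% that fell. In SLC38, 6 of 8 members rose and none fell, with a median log2 fold change of 0.81. Both SLC36 members rose, with a median of 0.61. In SLC6, 3 of 5 tested members fell and none rose, with a median of -0.26, but SLC6A3 was tested only through its control libraries, and 2 of 4 fell without it. In SLC1, 2 of 4 fell and none rose, with a median of -0.28. SLC7, with SLC7A6OS counted, had 1 of 7 higher, 1 lower (SLC7A7, also tested only through its control libraries) and 5 not called, at a median of 0.33, and SLC43 had 1 of 3 higher. Differences between families were not tested, since family members are not replicates. With control replicate 2 left out, the numbers that rose were 2 in SLC1, 1 in SLC6, 5 in SLC7 and 7 in SLC38, and 1 SLC43 member fell. In that fit 34.9% of all genes rose. Without control replicate 1, where 31.9% of all genes fell, 1 SLC43 member and 3 SLC7 members fell. The 3 were SLC7A7, SLC7A6OS, which is not a transporter gene, and SLC7A8, which was not tested with all libraries. In SLC38, 1 member fell without POGK replicate 1, without control replicate 3 or with the replicate number as a block.

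Levels of different genes are compared here per length, as CPM divided by kilobases of annotated exon and summed over a family, without SLC7A6OS. SLC38 summed to 278, 277 and 279 CPM per kb in POGK libraries, against 152, 199 and 184 in control libraries. SLC36 summed to 5.49, 5.56 and 5.70 in POGK libraries and 3.44, 3.81 and 3.73 in control libraries. In both families every POGK library lay above every control library. SLC6 went the other way, with 77.1, 73.6 and 72.9 CPM per kb in POGK libraries and 112, 91.05 and 97.9 in control libraries, again without overlap. SLC7 summed to 125, 124 and 126 in POGK libraries, against 67.2, 146 and 67.9 in control libraries. SLC1 summed to 91.4, 89.6 and 92.0 in POGK libraries, against 68.0, 103 and 75.3 in control libraries. In SLC7 and SLC1 the POGK libraries lay between control replicate 2 and the other control libraries, so the groups overlapped. The single SLC3 gene had 22.0, 21.9 and 22.0 CPM per kb in POGK libraries and 22.0, 32.3 and 16.8 in control libraries. SLC43 was low, at 4.32, 3.99 and 4.06 in POGK libraries and 3.40, 4.66 and 3.94 in control libraries, and overlapped. Summed over the 32 transporter genes the level was 603, 596 and 602 CPM per kb in POGK libraries, against 427, 580 and 450 in control libraries, and the groups did not overlap. Without SLC38A2 the sum was 384, 378 and 381 CPM per kb in POGK libraries, against 314.5, 437 and 309 in control libraries, with control replicate 2 above every POGK library. The SLC38 sum without SLC38A2 was 58.6, 58.8 and 58.5 in POGK libraries and 38.9, 55.9 and 43.6 in control libraries, still without overlap. In bulk samples a change in the share of cells that express a gene and a change per cell cannot be told apart.

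**Figure D3:**
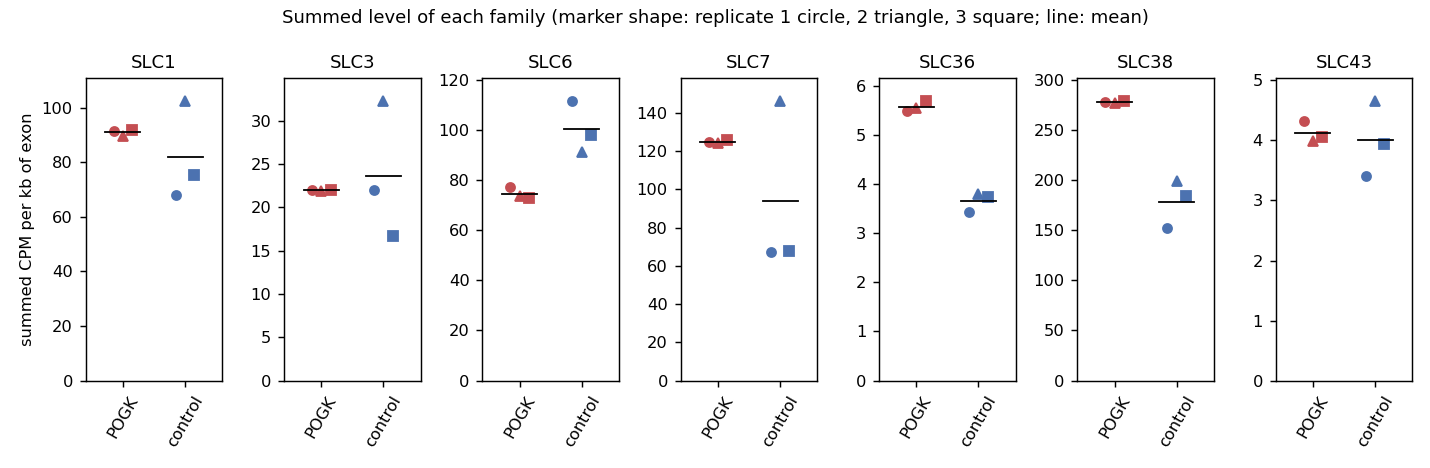
Summed CPM per kb of exon of each family in the 3 POGK libraries (red, left) and the 3 control libraries (blue, right), each panel on its own axis from 0, with the group mean as a line. POGK libraries lie above all control libraries in SLC36 and SLC38 and below them in SLC6, and control replicate 2 (triangle) is the highest library of SLC1, SLC3, SLC7 and SLC43.

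SLC38A2 had the highest level per length in both groups, at 220 ± 1.19 CPM per kb in POGK cells and 132 ± 16.7 in control cells (SD, n = 3 each). SLC38A2 made up 36.4% to 36.7% of the summed level in POGK libraries and 24.7% to 31.2% in control libraries. SLC1A5 followed at 84.7 ± 1.27 in POGK cells and 71.0 ± 19.0 in control cells. The third place was held by SLC7A5 in POGK cells, at 48.5 ± 0.65 CPM per kb, and by SLC6A8 in control cells, at 58.0 ± 8.51. In control cells SLC1A5, SLC6A8 and SLC7A5 did not keep 1 order: SLC6A8 exceeded SLC1A5 in control replicate 1, at 67.6 and 56.8 CPM per kb, and SLC7A5 exceeded SLC6A8 in control replicate 2, at 67.2 and 51.3. In control cells SLC6A6 (40.1 ± 3.22), SLC7A5 (36.4 ± 26.7) and SLC38A1 (36.3 ± 7.89) did not differ beyond their spread, and neither did SLC7A1 (25.8 ± 7.63), SLC3A2 (23.7 ± 7.92) and SLC7A2 (23.0 ± 6.43). Within each control library, however, SLC7A1 exceeded SLC7A2, at 21.9, 34.6 and 20.9 against 19.45, 30.45 and 19.2 CPM per kb. In POGK cells SLC38A1 (42.9 ± 0.49), SLC6A8 (38.2 ± 0.49), SLC6A6 (33.6 ± 2.04) and SLC7A1 (32.4 ± 0.12) followed, and SLC6A6 and SLC7A1 did not differ beyond the spread of SLC6A6. Annotated exons are joined over all transcripts, so the level of a gene with a long annotation, such as SLC1A3 with 21227 bases, is understated.

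The SLC38 family holds sodium-coupled carriers of small neutral amino acids. SLC38A2 (SNAT2; ENSG00000134294; hg38 chromosome 12, 46358188 to 46372773, minus strand), the adaptive carrier of system A that imports glutamine and alanine, had 1431, 1421 and 1437 CPM in POGK libraries, against 735, 931 and 914 CPM in control libraries. All POGK libraries were higher than all control libraries, and control replicate 1 was the lowest. It rose with a log2 fold change of 0.73 (SE 0.10; edgeR adjusted p of 2.85e-04), or 1.66-fold. SLC38A1 (SNAT1), the other abundant carrier of this system, had 428, 435 and 425 CPM in POGK libraries, against 301, 452 and 339 CPM in control libraries. Its POGK libraries lay between control replicate 2 and the others, and it missed the threshold with a log2 fold change of 0.24 (edgeR adjusted p of 0.147). Leaving out control replicate 2 gave a called value of 0.43, and with library size alone as scaling it was called at 0.43 as well. Without control replicate 1 it was 0.12, not called. SLC38A4 (SNAT4), a system A carrier known from liver, was rare, at 4.70, 4.01 and 4.08 CPM in POGK libraries and 1.01, 1.88 and 1.41 CPM in control libraries. With these low levels it still rose 2.93-fold without overlap, with a log2 fold change of 1.55 (SE 0.21; edgeR adjusted p of 2.605e-04).

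Among the members, SLC38A9, SLC38A7 and SLC36A1, which act at the lysosome, rose. SLC38A9, which senses lysosomal arginine for mTORC1 and lets essential amino acids out, had 20.2, 19.6 and 22.0 CPM in POGK libraries, against 5.55, 11.6 and 9.74 CPM in control libraries. Its control libraries spanned 2.09-fold, with control replicate 1 lowest. The log2 fold change was 1.19 (SE 0.22; edgeR adjusted p of 0.00124). SLC38A7 (SNAT7), which exports glutamine from lysosomes, had 16.99, 15.8 and 17.1 CPM in POGK libraries and 6.36, 9.54 and 7.88 CPM in control libraries. It rose 2.09-fold, with no overlap between the groups. SLC36A1 (PAT1), a proton-coupled carrier of lysosomes and the cell surface, had 19.1, 17.3 and 20.3 CPM in POGK libraries and 11.4, 12.8 and 11.6 CPM in control libraries. SLC36A4 (PAT4), of the same proton-coupled family, had 26.8, 29.9 and 27.1 CPM in POGK libraries and 17.4, 19.1 and 20.1 CPM in control libraries. Both SLC36 genes rose without overlap, with log2 fold changes of 0.66 and 0.56 and edgeR adjusted p-values of 5.46e-04 and 7.09e-04. Their control libraries lay within 1.15-fold of each other, so these rises did not hang on control replicate 2. SLC38A6 and SLC38A10 rose 1.86-fold and 1.31-fold. SLC38A5 (SNAT5), a glutamine carrier of system N, had only 20 counts over POGK libraries and 41 over control libraries. It missed the threshold narrowly (edgeR adjusted p of 0.0532) but was called lower without POGK replicate 1 or control replicate 3, at log2 fold changes of -1.79 and -1.62, and with the replicate number as a block, at -1.34.

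SLC3A2 (ENSG00000168003; chromosome 11, 62856004 to 62888880, plus strand), the shared heavy chain, had 141, 140 and 141 CPM in POGK libraries, against 140, 207 and 107 CPM in control libraries. The POGK libraries sat at the level of control replicate 1, between the other control libraries. It missed the threshold with a log2 fold change of -0.11 (SE 0.20; edgeR adjusted p of 0.65). The sign turned without control replicate 2, at 0.18, and with library size alone, at 0.08, neither of them called.

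The light chains that bind it were uneven among the controls. SLC7A5 (LAT1; ENSG00000103257; chromosome 16, 87830023 to 87869507, minus strand), which exchanges glutamine for leucine and other large neutral amino acids, had 231, 228 and 234 CPM in POGK libraries, against 100.0, 320 and 99.5 CPM in control libraries. Control replicate 2 exceeded every POGK library and stood 3.22-fold above control replicate 3, whereas the other control libraries lay below every POGK library. With all libraries the log2 fold change of 0.41 (SE 0.41) missed the threshold (edgeR adjusted p of 0.399). It was 1.21 (SE 0.05), or 2.32-fold, without control replicate 2 (edgeR adjusted p of 1.16e-06). Without control replicate 1 or control replicate 3 it was 0.14 and 0.13, neither of them called. Near copies of SLC7A5 and of SLC6A8 lie elsewhere in the genome, so reads may have been split and the counts of both genes are uncertain. SLC7A11 (xCT; ENSG00000151012; chromosome 4, 138164097 to 138242349, minus strand), which imports cystine in exchange for glutamate, had 98.0, 100.0 and 98.5 CPM in POGK libraries, against 27.3, 102 and 40.3 CPM in control libraries. Control replicate 2 lay just above the POGK libraries, and the controls spanned 3.74-fold. Its log2 fold change was 0.80 (SE 0.40; edgeR adjusted p of 0.11), and without control replicate 2 it was 1.55 (SE 0.14; edgeR adjusted p of 2.48e-05). It also passed with limma-voom, at 1.01 and an adjusted p of 0.0347, but not without control replicate 1, at 0.47.

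SLC7A6 (y+LAT2), a light chain that exports arginine for neutral amino acids, was the light chain that rose with all libraries. It had 46.0, 47.2 and 46.0 CPM in POGK libraries, against 14.2, 24.8 and 19.2 CPM in control libraries, without overlap. The log2 fold change was 1.26 (SE 0.17; edgeR adjusted p of 2.17e-04), or 2.39-fold. SLC7A6OS (the human relative of a yeast import factor of RNA polymerase II) covers 44.4% of the SLC7A6 exon bases on the other strand, and because the strand setting of the counting is not given in the sources used here, their reads may be mixed. SLC7A6OS had 22.6, 23.7 and 22.7 CPM in POGK libraries and 24.6, 25.5 and 27.7 CPM in control libraries. Its groups did not overlap, yet it missed the threshold at a log2 fold change of -0.17, and it was called lower without control replicate 1, at -0.20, and turned to 0.02 with library size alone. SLC7A7 (y+LAT1), with 10, 11 and 4 counts in POGK libraries and 21, 32 and 26 in control libraries, fell 3.70-fold and was near the floor of detection in both groups. It passed the filter through its control libraries, so its fall is no support for a direction.

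The ratio of each light chain to the heavy chain was compared within libraries, as the difference of log2 (CPM + 0.5), which depends little on scaling between libraries. For SLC7A5 over SLC3A2 it was 0.72, 0.70 and 0.73 in POGK libraries, against -0.49, 0.63 and -0.11 in control libraries. For SLC7A11 over SLC3A2 it was -0.52, -0.48 and -0.51 in POGK libraries, against -2.34, -1.01 and -1.40 in control libraries. For SLC7A6 over SLC3A2 it was -1.60, -1.56 and -1.60 in POGK libraries, against -3.26, -3.03 and -2.45 in control libraries. In all 3 ratios every POGK library was above every control library, control replicate 2 included. The mean differences were 0.70, 1.082 and 1.33 on the log2 scale, each with p = 0.1 by a two-sided exact permutation test, which is the smallest p that 3 against 3 libraries allow, and 0.1 after adjustment over the 3 ratios. Without control replicate 1 the difference for SLC7A5 was 0.45 and that for SLC7A11 was 0.70.

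The cationic carriers SLC7A1 (CAT1) and SLC7A2 (CAT2), which bring in arginine and lysine without a heavy chain, had the order of libraries seen for SLC7A5. SLC7A1 had 250, 248 and 249.4 CPM in POGK libraries, against 168, 266 and 161 CPM in control libraries. SLC7A2 had 217, 216 and 222 CPM in POGK libraries, against 154, 241 and 152 CPM in control libraries. Control replicate 2 was above the POGK libraries in both, and the other control libraries were below. Neither passed with all libraries, at log2 fold changes of 0.33 and 0.26 and edgeR adjusted p-values of 0.119 and 0.183. Both were called without control replicate 2, at 0.60 and 0.52, and SLC7A1 was also called with library size alone, at 0.52, and with the replicate number as a block, at 0.37. Without control replicate 3 they were 0.20 and 0.14, neither of them called.

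SLC1A5 (ASCT2), the exchanger that brings glutamine into many tumour cells, had 284, 277 and 285 CPM in POGK libraries, against 189, 308 and 212 CPM in control libraries. An opposite-strand gene covers 23.4% of its exon bases. SLC1A4 (ASCT1), which exchanges serine, alanine and cysteine, had 5.95, 6.50 and 6.11 CPM in POGK libraries and 3.98, 9.29 and 3.94 CPM in control libraries. In both, the POGK libraries lay between control replicate 2 and the others. Neither reached the threshold, with log2 fold changes of 0.25 and 0.10 and edgeR adjusted p-values of 0.185 and 0.792. Both were called without control replicate 2, at 0.49 and 0.64, whereas SLC1A4 turned to -0.10 without control replicate 1 and to -0.12 without control replicate 3, neither of them called. SLC1A5 was at 0.12 without control replicate 1, not called.

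Both glutamate carriers of the same family that could be tested fell. SLC1A3 (EAAT1), a glutamate transporter best known from astrocytes, had 36.7, 37.2 and 37.8 CPM in POGK libraries, against 97.6, 78.8 and 97.4 CPM in control libraries. The fall was 2.45-fold without overlap, with a log2 fold change of -1.29 (SE 0.09; edgeR adjusted p of 1.05e-05). SLC1A1 (EAAT3), which takes up glutamate and cysteine, had 14.5, 14.6 and 14.8 CPM in POGK libraries and 23.9, 19.5 and 25.8 CPM in control libraries, and fell 1.58-fold. For these genes control replicate 2 was the control library nearest to the POGK libraries, and the falls were larger without it, at log2 fold changes of -1.39 and -0.77.

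SLC6 members couple transport to sodium and chloride, and the abundant ones carry osmolytes and energy metabolites. SLC6A8, the creatine transporter, had 220, 219 and 215 CPM in POGK libraries, against 385, 292 and 313 CPM in control libraries, and fell 1.52-fold without overlap (log2 fold change of -0.60, SE 0.10; edgeR adjusted p of 8.13e-04). SLC6A6, the taurine transporter, had 297, 269 and 266 CPM in POGK libraries, against 352, 301 and 340 CPM in control libraries. The groups did not overlap, but POGK replicate 1 and control replicate 2 lay close together. Its fall, with a log2 fold change of -0.26 (edgeR adjusted p of 0.0237), was lost with library size alone (-0.06) and without POGK replicate 2 (-0.23), POGK replicate 3 (-0.22) or control replicate 3 (-0.24). SLC6A9 (GlyT1), the glycine transporter, had 10.3, 10.9 and 12.2 CPM in POGK libraries, against 4.35, 14.3 and 4.99 CPM in control libraries, with control replicate 2 above every POGK library. It missed the threshold with a log2 fold change of 0.48 (edgeR adjusted p of 0.311) and was called at 1.25 without control replicate 2. Without control replicate 1 it was 0.20, not called. SLC6A3, the dopamine transporter, had 0, 1 and 0 counts in POGK libraries and 13, 13 and 11 in control libraries, so that control was 43.8 times POGK in summed counts relative to depth, within exact 95% bounds of 7.39 and 1775 for counting error alone. It was tested only through its control libraries, where it was higher, so the fall and its bounds are no support for a direction. SLC6A16, an orphan member, had 1.63 to 2.02 CPM in POGK libraries and 1.18 to 1.92 CPM in control libraries and did not pass, at a log2 fold change of 0.30.

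SLC43 members let large neutral amino acids through without an ion gradient. SLC43A2 (LAT4) had 15.9, 14.7 and 14.6 CPM in POGK libraries, against 7.89, 8.87 and 7.98 CPM in control libraries, and rose 1.82-fold without overlap (log2 fold change of 0.87, SE 0.10; edgeR adjusted p of 1.17e-04). SLC43A1 (LAT3) had 9.56, 8.82 and 9.28 CPM in POGK libraries and 8.77, 13.1 and 10.4 CPM in control libraries. It overlapped and did not pass, at a log2 fold change of -0.23, but was called lower without control replicate 1, at -0.35. SLC43A3, a carrier of purine nucleobases rather than amino acids, had 18, 17 and 7 counts in POGK libraries and 19, 16 and 31 in control libraries. It missed the threshold (edgeR adjusted p of 0.0563) and was called lower without control replicate 2, at a log2 fold change of -1.14. A same-strand gene covers 29.9% of its exon bases, so its counts are uncertain.

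Leaving out control replicate 2 changed the call of 9 members. Those that came to be called higher were the 8 members for which that library lay above the POGK libraries and the other control libraries below them, and SLC43A3 came to be called lower. For those 8 members, leaving it out takes away the only control library above the POGK libraries, so these calls are no separate support for a rise. All 10 members that rose with all libraries had every control library below every POGK library, control replicate 2 included. The median log2 fold change of the 26 members over 1 CPM was 0.36 with all libraries and 0.59 without control replicate 2. Over all members tested in each fit, the median was 0.28 with all libraries and 0.51 without control replicate 2. It fell to 0.13 without control replicate 1 and to 0.18 without control replicate 3.

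**Figure D4:**
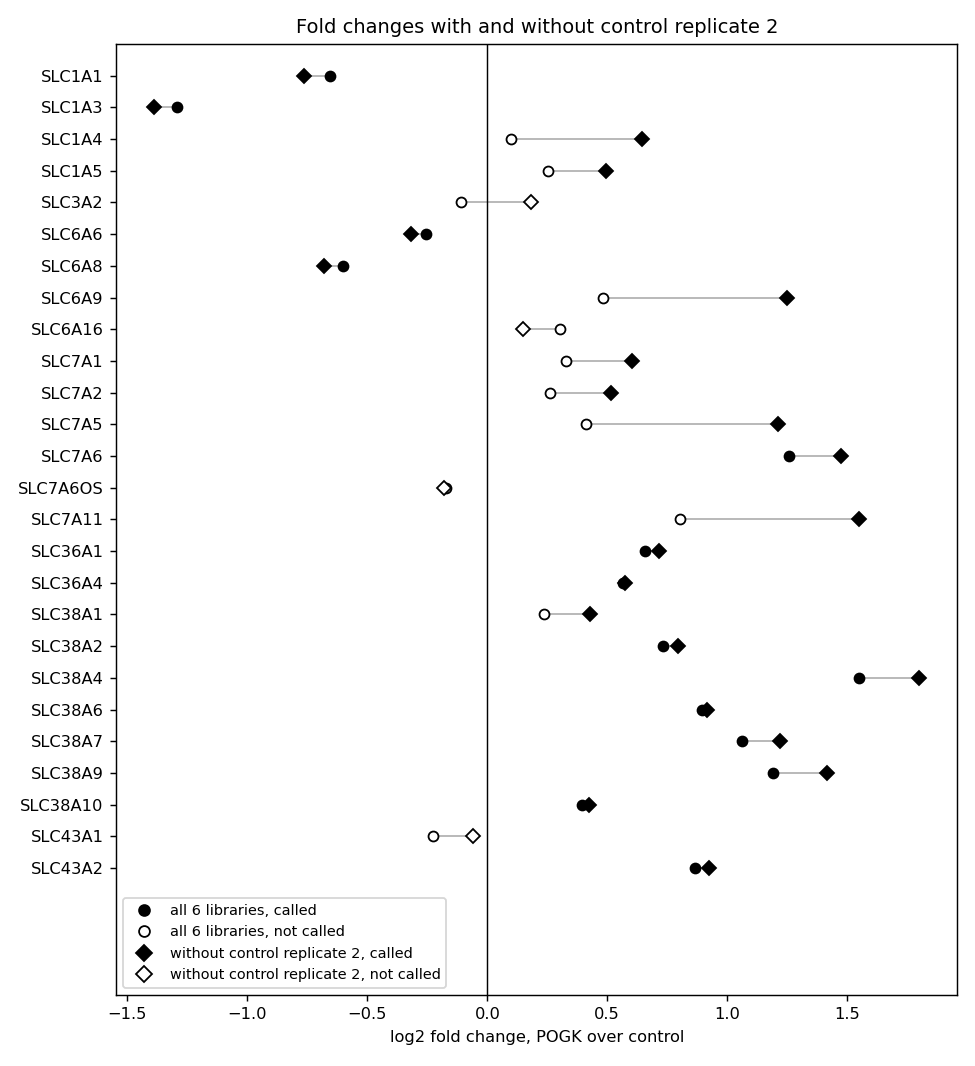
Log2 fold change of POGK over control for the 26 members with a mean of at least 1 CPM, with all 6 libraries (circles) and without control replicate 2 (diamonds), filled where the edgeR adjusted p was below 0.05. The longest shifts were those of SLC7A5, SLC6A9, SLC7A11 and SLC1A4.

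Of 11 listed genes of the amino acid response, 3 rose and 4 fell, near the shares of 32.7% and 33.3% over all genes. The number that rose was 6 without control replicate 2, where 34.9% of all genes rose. Control replicate 2 lay above all POGK libraries and the other control libraries below them for 3 of the 11 (CHAC1, TRIB3 and CEBPG) and not for the other 8. That arrangement was found for 1.54% of genes tested at a mean of at least 1 CPM, but the list was chosen with earlier results known. For those 3, leaving out control replicate 2 takes away the only control library above the POGK libraries. A call in that fit is therefore no separate support for a rise. CHAC1, a glutathione-degrading enzyme induced by ATF4 and chosen after its values were seen, had 3.61, 3.07 and 3.85 CPM in POGK libraries, against 0.32, 14.8 and 0.74 CPM in control libraries. TRIB3, a pseudokinase induced by the same factor, likewise chosen, had 52.2, 52.0 and 53.9 CPM in POGK libraries, against 37.1, 111 and 37.3 CPM in control libraries. CEBPG, a partner of ATF4, also chosen after its values were seen, had 57.2, 58.9 and 57.4 CPM in POGK libraries and 25.8, 75.7 and 33.6 CPM in control libraries. The mRNA of ATF4 itself, chosen in the same way, did not follow: it had 258, 244 and 242 CPM in POGK libraries, against 532, 515 and 400 CPM in control libraries, and fell 1.95-fold. CEBPB and DDIT3 were the called genes with the largest falls, of 3.50-fold and 2.175-fold, and ATF5 and GCN1 those with the largest rises, of 1.77-fold and 1.41-fold. ASNS, at 1.71 to 1.96 CPM in POGK libraries and 1.55 to 4.05 CPM in control libraries, shares 49.3% of its exon bases with a same-strand gene and is uncertain. The part that this response has in the transporter levels was not tested.

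**Figure D5:**
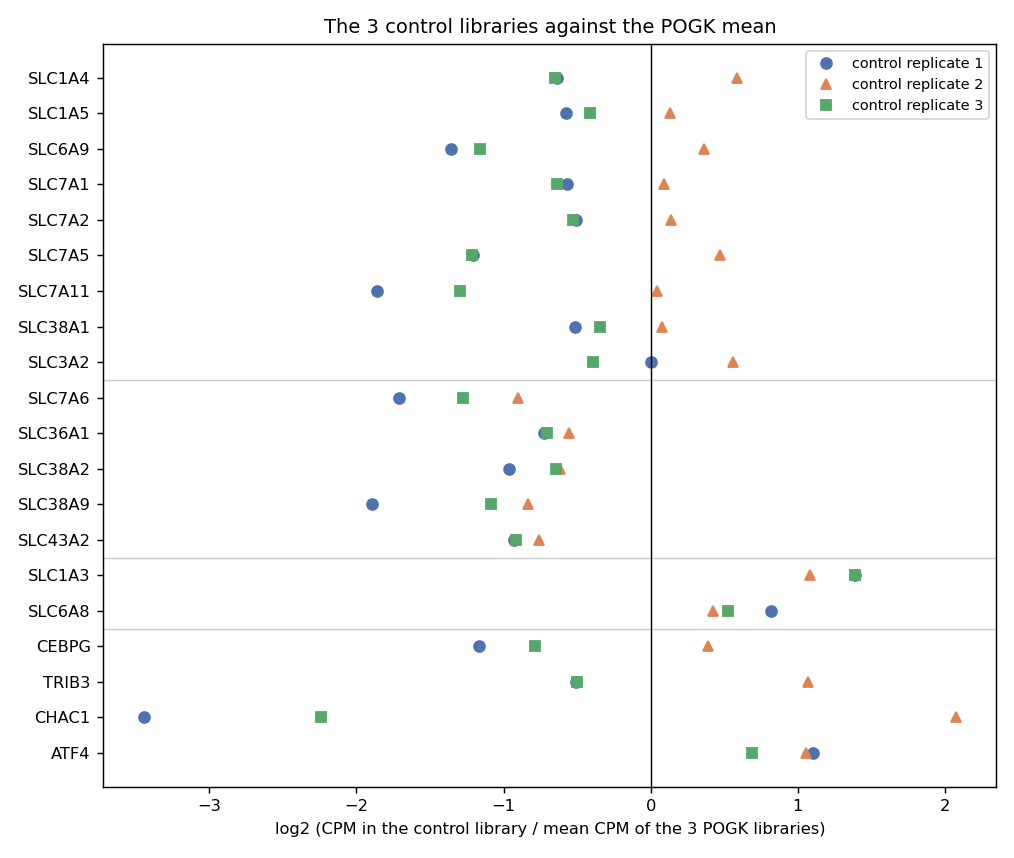
CPM in each control library over the mean CPM of the 3 POGK libraries, on a log2 scale, for 16 members and for CEBPG, TRIB3, CHAC1 and ATF4 at the bottom. Control replicate 2 (orange triangle) lies right of 0 in the uppermost block, while the other control libraries lie at or left of it. In the second block all control libraries lie left of 0, and in the third all lie right of it.

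Among the genes by which mTORC1 reads amino acids at the lysosome, 14 of 28 tested fell and 7 rose, with a median log2 fold change of -0.21, where 33.3% of all genes fell and 32.7% rose. RRAGD, a Rag GTPase, fell 4.60-fold, with 5.15 ± 0.40 CPM in POGK cells and 23.7 ± 5.78 CPM in control cells (SD, n = 3 each). CASTOR1, a cytosolic arginine sensor, fell 3.89-fold at 0.20 ± 0.07 CPM in POGK cells and 0.78 ± 0.05 CPM in control cells, and a same-strand gene covers 46.0% of its exon bases. It passed the filter only through its control libraries, and 13 of 27 fell without it. SEH1L, which belongs to GATOR2 and to the nuclear pore, rose to 75.03 ± 2.34 CPM in POGK cells, against 34.05 ± 9.30 CPM in control cells, and DEPDC5, of the inhibitor GATOR1, rose 1.68-fold. Calls in this list went both ways, while SLC38A9 rose.

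Mitochondrial amino acid carriers of the SLC25 family rose in 5 of 8 cases and fell in 1, at a median log2 fold change of 0.48, beside 32.7% higher and 33.3% lower over all genes. SLC25A13, an aspartate-glutamate carrier, rose 4.03-fold to 34.6, 36.1 and 36.5 CPM in POGK libraries, against 5.31, 13.9 and 7.14 CPM in control libraries. SLC25A12, its close relative, rose 1.25-fold, and the glutamate carrier gene SLC25A18 rose 2.39-fold from a low level. SLC25A38, a glycine carrier needed for haem synthesis, fell 1.51-fold. Of 8 other amino acid and peptide transporters, 1 rose and 1 fell, below the shares of 32.7% and 33.3% over all genes. The lysosomal cationic exporter SLC66A1 (PQLC2) rose 1.44-fold, and SLC17A7, a vesicular glutamate carrier of neurons, fell 18.2-fold, with 0.57 ± 0.10 CPM in POGK cells and 10.6 ± 2.37 CPM in control cells. The other 6 were not called, so SLC66A1 does not stand for the list. They included CTNS, MFSD12, SLC15A3 and SLC15A4, at log2 fold changes of 0.27, -0.10, 0.27 and 0.07. In this list 2 rose without control replicate 2, where 34.9% of all genes rose. With library size alone 3 rose, where 6575 of all 15889 genes tested rose.

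Of 12 genes that use glutamine, glutamate and cysteine, 4 rose and 3 fell, near the shares of 32.7% and 33.3% over all genes, at a median log2 fold change of 0.01. GCLM, the modifier subunit of glutathione synthesis, rose 1.86-fold to 169 ± 4.90 CPM in POGK cells, against 91.05 ± 13.0 CPM in control cells, and GOT2, a mitochondrial transaminase, rose 1.78-fold. GLS2, the liver-type glutaminase, fell 2.96-fold at under 1 CPM in every library, and another gene covers 77.1% of its exon bases. It passed the filter only through its control libraries, and 2 of 11 fell without it. GFPT1, which starts hexosamine synthesis from glutamine, fell 1.18-fold with overlapping groups. Without any 1 of the POGK replicates 1 of these genes fell, where 4567 to 4661 genes of the whole series fell, against 5285 with all libraries. With library size alone 1 fell as well, where 3925 of all 15889 genes tested fell.

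In the authors' deposited table, 10 members were higher and 9 lower at the same threshold. The share of all genes called in that table was not computed, so these counts are not set against a background. All 10 of the members higher in that table were also called higher here, and 5 of the 9 were also called lower. SLC6A6 fell here and was not called in the authors' deposited table, which in turn called SLC38A5, SLC43A3, SLC1A7 and SLC7A8 lower.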

How the data were processed

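The authors' deposited table gives raw counts by Ensembl gene in 6 SUM159 libraries, aligned to hg38 per the labels' protocols. The submitters' processing notes name Trimmomatic, STAR, SAMtools, deepTools and featureCounts. Neither the gene annotation nor the strand setting is stated in these sources. Per the file headers, the deposited table also held a log2 fold change, a test score, a standard error (other) and p-values, whose tool is not stated, and a signal column per library that equals the count over a size factor. These authors' columns were used only where named. Counts were tested with edgeR 4.0.16 (R 4.3.3): quasi-likelihood, robust, TMM, filterByExpr with a minimum count of 10, Benjamini-Hochberg over 15889 genes, called below 0.05. Standard errors come from the F statistic. Positions, exon lengths and overlaps came from GENCODE 44 (hg38), which matched 18264 of 18398 genes. The test was checked on simulated counts with known changes.

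Members and lists were chosen with earlier results of these data known. Members were named with every library's value if they were in a preset core of well-known transporters, were called with a log2 fold change of at least 1 at a mean of at least 1 CPM, or had control libraries spanning over 3-fold, and a few others beyond this rule are given more briefly or were added. From each list the called genes with the largest and smallest fold change were named, at most 2 each way. Alternatives were DESeq2 1.42.0, limma-voom (limma 3.58.1), limma with 1 variance weight per group, other scalings and filters, a block for the replicate number, and fits that each leave out 1 library. Ratios were tested with scipy 1.17.1. Intervals cover counting error only.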

Additional observations from a re-analysis of the deposited data

How the results depend on the processing

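The number of members called higher, 10 with all libraries, was 16 with limma and 1 variance weight per group, which lets the narrow POGK libraries and the wide control libraries keep their own spread. It was 10 to 18 with 1 library left out (18 without control replicate 2). The number called lower, 6, was 5 to 10 with 1 library left out (10 without control replicate 1). Of those 10, SLC1A7 and SLC7A8 were not tested with all libraries, and the smaller group loosens the filter. With limma and 1 weight per group, SLC1A5, SLC7A1, SLC7A2, SLC7A5, SLC7A11 and SLC38A1 came to be called higher. The sign of an uncalled fold change turned for SLC3A2 (0.082 with library size alone, and -0.31 to 0.18 with 1 library left out, the positive value being that without control replicate 2), SLC7A6OS (0.021 with library size alone) and SLC1A4 (-0.12 to 0.64 with 1 library left out, of which -0.10 without control replicate 1 and -0.12 without control replicate 3). The cause was not tested. With library size alone, the median log2 fold change was 0.19 for all genes and 0.47 for the members. Under the other scalings, filters and tools the numbers of members called higher and lower stayed within 1.5 times of 10 and 6. The difference between POGK and control libraries in the log2 ratio to SLC3A2 ranged over single left-out libraries from 0.45 to 1.01 for SLC7A5, from 1.16 to 1.56 for SLC7A6 and from 0.70 to 1.37 for SLC7A11.

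Deviations of same-numbered libraries correlated at 0.09, 0.04 and 0.0028, and the first of these was the highest of all pairs. POGK replicate 3 correlated best with control replicate 2, at 0.05. The POGK libraries differ so little from each other that this check cannot tell whether the replicate numbers pair the libraries. With the replicate block 11 members were called higher and 7 lower. Members under 1 CPM rest on few counts, so a difference there was not detectable unless large.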
